A study of Mus musculus with 14 samples.

Results

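Genes of the collagen matrix and of fibroblasts, 10 of the 52550 rows of the deposited table, were followed across 14 lung tumors. They were chosen by name and matched through their Ensembl identifiers. They are Col1a1, Col1a2, Col3a1, Col6a1, Dcn, Lum, Fn1, Sparc, Pdgfra and Pdgfrb. The tumors arose in KPY mice, whose alleles include Trp53 flox/flox and Rosa26 LSL-YFP/LSL-YFP, on a mixed B6J/129S4vJae background. In both groups a lentivirus (lentiCRISPRv2Cre) given through the trachea delivered Cre, Cas9 and a guide RNA, so that transduced cells of both groups lost p53 and gained yellow fluorescent protein (YFP). The guide was a control (sgBGal) in 6 KPY-Ctrl tumors and targeted Setd2, which encodes the enzyme that places H3K36 trimethylation on histones, in 8 KPY-Setd2KO tumors. Tumors were microdissected, digested, and sorted for live YFP+ cells before RNA-seq. Marking by YFP depends on transduction and not on cell type. The study used mice of both sexes.

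Fibrillar collagens are the main tensile proteins of connective tissue. Collagen I is assembled from Col1a1 and Col1a2 chains, usually alongside collagen III, and the small proteoglycans decorin (Dcn) and lumican (Lum) bind and space its fibrils. In lung these genes are made chiefly by fibroblasts, which carry the PDGF receptors Pdgfra and Pdgfrb. Fibronectin (Fn1), Sparc and collagen VI (Col6a1) belong to the same matrix, but epithelial tumor cells and macrophages can make them as well. In a sort for tumor cells these genes therefore bear on which matrix RNAs were measured and how they differed between genotypes.

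Libraries held 27866266 to 51828846 counts for KPY-Ctrl and 20072236 to 40604404 for KPY-Setd2KO tumors. Setd2 was lower in KPY-Setd2KO tumors, at 17.9 to 47.4 CPM (counts scaled to library size after TMM normalization) with a median of 30.4, than in KPY-Ctrl tumors, at 41.9 to 63.6 with a median of 53.8. Its edgeR log2 fold change was −0.74 ± 0.22 (SE), with an unadjusted p of 0.00486 and an adjusted p of 0.175, and the ranges overlapped. Leukocyte RNA differed widely between tumors of both genotypes. Its score, the mean log2 CPM of 12 genes such as Ptprc (CD45), was 3.13 to 5.35 in 7 tumors (KPY-Ctrl 3, 4 and 5 and KPY-Setd2KO 5 to 8) and 8.21 to 8.90 in the other 7. Lung epithelial genes were abundant in every tumor, with Sftpc, surfactant protein C, at 3039 to 34541 CPM.

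Sparc and Fn1 were far more abundant than the other genes, with Col6a1 in between. Per kilobase of exon, the scale on which genes can be compared, the medians over 14 tumors were 94.4 CPM per kb for Sparc, 25.2 for Fn1 and 2.59 for Col6a1. They were 0.604 for Col1a1, 0.334 for Dcn, 0.333 for Col1a2 and 0.173 for Col3a1. The lowest were Pdgfrb at 0.0843, Pdgfra at 0.0393 and Lum at 0.00319. Sparc exceeded Fn1 in 11 of 14 tumors and Fn1 exceeded Col6a1 in all 14. Dcn and Col1a2 could not be ranked, since Dcn was higher in 8 of 14 tumors. Exon length was taken as the union of all annotated exons, so a gene expressed as a short isoform is understated on this scale. Fn1 and Sparc together made up 90.4% to 98.9% of the summed CPM of the 10 genes in each tumor, and 92.5% to 99.8% with Col6a1 added. The sum of the other 7 genes was 3.01 to 88.2 CPM in KPY-Ctrl tumors, with a median of 10.4, and 8.02 to 30.2 CPM in KPY-Setd2KO tumors, with a median of 16.8.

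**Figure D1:**
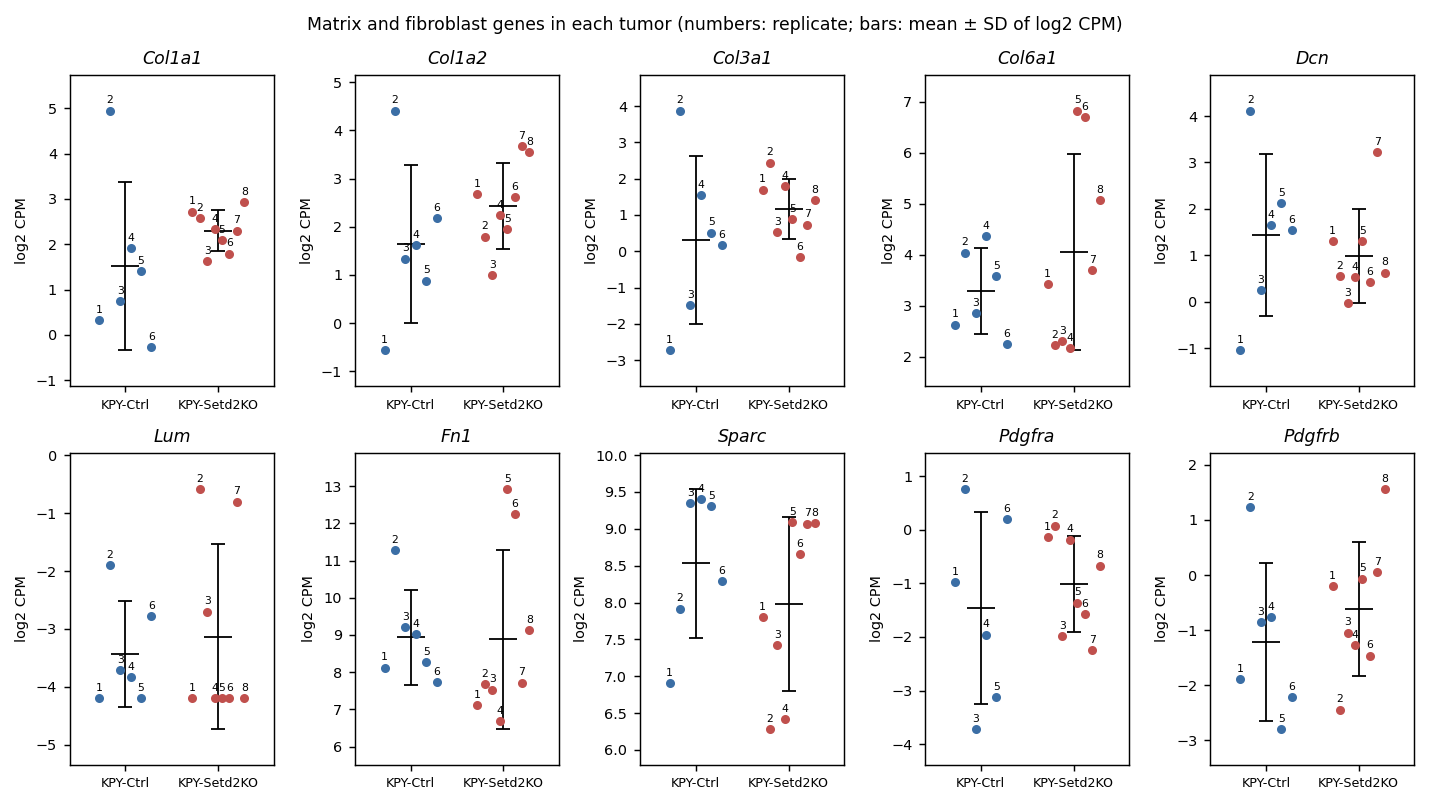
Level of the 10 genes in each tumor, as log2 CPM on the vertical axis with a separate scale for each gene, for 6 KPY-Ctrl (blue) and 8 KPY-Setd2KO (red) tumors. Points carry the replicate number, and bars show the mean ± SD. KPY-Ctrl 2 is the highest tumor for Col1a1, Col1a2, Col3a1, Dcn and Pdgfra, and KPY-Setd2KO 5 and 6 are the highest for Col6a1 and Fn1.

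Sequence upstream of the annotated start is shown for 4 of these genes, because their RNAs followed 3 different patterns over the tumors: Col1a2 and Col3a1 were highest in KPY-Ctrl 2, Col6a1 in KPY-Setd2KO 5, and Sparc in tumors poor in leukocyte RNA. The RefSeq promoter table (GRCm38.p6) held 5 of the 10 genes, the fifth being Pdgfra. The 250 bases before the start are at chr6:4505368-4505617 (+ strand) for Col1a2, chr1:45311288-45311537 (+) for Col3a1, chr10:76726045-76726294 (−) for Col6a1 and chr11:55420081-55420330 (−) for Sparc. Capitals mark matches on either strand to 4 motifs, none of which overlapped another. The CCAAT box was searched by its own letters. The letters searched for the TATA box were TATAAA. Those for the GC box were GGGCGG. Those for the AP-1 site were TGANTCA, where N is any base.
Col1a2: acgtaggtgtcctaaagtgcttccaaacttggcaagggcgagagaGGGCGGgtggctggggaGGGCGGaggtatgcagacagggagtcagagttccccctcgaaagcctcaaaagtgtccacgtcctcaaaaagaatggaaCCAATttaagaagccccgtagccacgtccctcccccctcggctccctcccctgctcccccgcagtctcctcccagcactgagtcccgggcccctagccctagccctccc
Col3a1: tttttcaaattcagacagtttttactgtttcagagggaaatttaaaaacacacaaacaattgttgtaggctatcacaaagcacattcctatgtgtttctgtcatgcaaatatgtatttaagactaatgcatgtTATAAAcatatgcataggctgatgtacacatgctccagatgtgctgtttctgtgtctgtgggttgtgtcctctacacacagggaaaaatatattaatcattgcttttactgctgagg
Col6a1: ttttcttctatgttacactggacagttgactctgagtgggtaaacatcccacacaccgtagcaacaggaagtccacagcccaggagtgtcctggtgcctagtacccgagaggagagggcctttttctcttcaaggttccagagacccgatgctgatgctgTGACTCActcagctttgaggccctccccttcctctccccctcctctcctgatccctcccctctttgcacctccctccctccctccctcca
Sparc: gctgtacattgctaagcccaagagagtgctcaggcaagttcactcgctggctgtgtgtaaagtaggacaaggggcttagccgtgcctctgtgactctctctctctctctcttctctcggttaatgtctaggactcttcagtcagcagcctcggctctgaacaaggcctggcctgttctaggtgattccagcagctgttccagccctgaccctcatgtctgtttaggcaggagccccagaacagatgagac
Col1a2 held 2 GC boxes and 1 CCAAT box, Col3a1 held 1 TATAAA match at −117 to −112 from the start, and Col6a1 held 1 AP-1 match at −90 to −84. The Sparc window held none of these letters. Neither did that of Pdgfra, which is not printed and whose RNA was also highest in KPY-Ctrl 2. Whether these motifs bear on the levels was not tested. Among 32851 promoter windows of the same length, 33.8% held a CCAAT match, 12.4% a TATAAA match, 32.7% a GC box and 6.75% an AP-1 match. For Col1a2, Col6a1 and Sparc the RefSeq start lies inside the gene as annotated in GENCODE, which has a further start upstream.

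None of these genes differed between genotypes past the threshold. edgeR, fitted on all 16836 genes that passed the filter on low counts, called 0% of genes, a call requiring both an adjusted p under 0.05 and more than 1 unit of log2 fold change either way. Of the 10 genes 9 were tested and 0 were called. At an unadjusted p under 0.05 there were 2311 genes, or 13.7% of those tested, and again 0 of the 9. The median log2 fold change (KPY-Setd2KO over KPY-Ctrl) of the 9 was −0.12, beside 0.03 for all genes tested, with 4 above 0 and 5 below. Their SD of log2 CPM within genotype was wide, with a median of 1.34 beside 0.67 for all genes. Each of the 9 lay between the 73.4 percentile (Sparc) and the 94.9 percentile (Fn1) of the genes tested for this spread. The p-values treat tumors as independent, although the study took more than 1 tumor from some mice, and in bulk RNA fewer cells of a type and less RNA per cell cannot be told apart.

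Other ways of fitting changed the calls. Adding the leukocyte score as a covariate called 2.29% of genes and 0 of the 9. DESeq2 called 1.35% of genes and none of the 8 of these genes for which it gave a p (0 of 8). It gave no p for Col1a1 and Fn1, whose counts it marked as outlying, and for Lum it gave a p but no adjusted p. limma voom with quality weights, which counts atypical tumors less, called 28.2% of genes and 2 of the 9. These were Sparc, with a log2 fold change of −1.57 and an adjusted p of 0.00920, and Pdgfra, with 1.77 and 0.0417. The weights were 3.55 and 4.76 for KPY-Ctrl 4 and 5, poor in leukocyte RNA, and 0.36 to 1.07 for the other controls. They were 1.28 to 2.10 for KPY-Setd2KO 1 to 4, rich in leukocyte RNA, and 0.41 to 0.61 for KPY-Setd2KO 5 to 8. The tumors with most weight in this fit differed in leukocyte RNA as well as in genotype. By edgeR the 2 values were −0.45 and −0.12 with genotype only, and −0.38 and 0.31 with the leukocyte covariate. limma voom was not fitted with that covariate, and the cause of its calls was not tested.

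**Figure D2:**
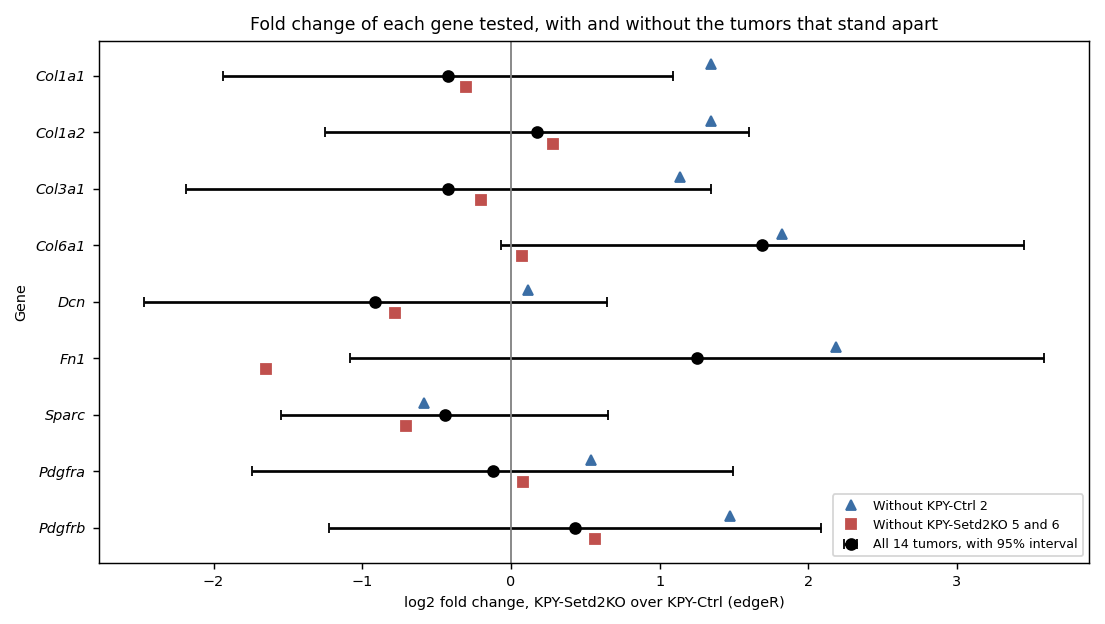
edgeR log2 fold change of the 9 genes tested, KPY-Setd2KO over KPY-Ctrl, on the horizontal axis. Black circles with 95% intervals use all 14 tumors, blue triangles leave out KPY-Ctrl 2, and red squares leave out KPY-Setd2KO 5 and 6. Every interval spans 0, Col1a1, Col3a1, Dcn and Pdgfra move from below to above 0 without KPY-Ctrl 2, and Fn1 moves from 1.25 to −1.65 without KPY-Setd2KO 5 and 6.

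The collagen I and III chains were low, and 1 control tumor set the sign of the fitted difference for Col1a1 and Col3a1. Col1a1 (ENSMUSG00000001506.10, chr11:94936224-94953042 on the + strand), the α1 chain of collagen I, had a lowest, median and highest level of 0.773, 2.10 and 30.9 CPM in KPY-Ctrl tumors and of 3.04, 4.93 and 7.61 CPM in KPY-Setd2KO tumors. KPY-Ctrl 2 was the tumor at 30.9 CPM, from 1018 counts, and the next control tumor was at 3.72 CPM. Of the other 5 control tumors, 4 lay below every KPY-Setd2KO tumor. The log2 fold change was −0.42 with a 95% interval from −1.94 to 1.09 and an adjusted p of 0.862. The means, 6.80 ± 11.9 CPM (SD, n = 6) and 5.07 ± 1.56 CPM (SD, n = 8), and the medians therefore stood in opposite order. Without KPY-Ctrl 2 the log2 fold change of Col1a1 was 1.34, with an unadjusted p of 0.00464 and an adjusted p of 0.194 by edgeR.

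Col1a2 (ENSMUSG00000029661.16, chr6:4504814-4541544, +), the α2 chain, was at 0.621, 2.75 and 21.2 CPM in KPY-Ctrl tumors and at 1.95, 5.35 and 12.7 CPM in KPY-Setd2KO tumors. KPY-Ctrl 2 was again highest, followed by KPY-Setd2KO 7 and 8 at 12.7 and 11.6 CPM. Its log2 fold change was 0.17 (95% interval −1.25 to 1.598, adjusted p = 0.945 by edgeR), and 1.35 without KPY-Ctrl 2 (adjusted p = 0.293). The ratio of Col1a2 to Col1a1 CPM, whose chains combine in 1 molecule, was 0.520 to 5.76 over the tumors with a median of 0.920. The ratio was highest in KPY-Ctrl 6, where Col1a1 had 34 counts, and 2.61 in KPY-Setd2KO 7.

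Col3a1 (ENSMUSG00000026043.18, chr1:45311538-45349706, +), the collagen III chain, was the scarcest of the 3 fibrillar chains, at 0.0955, 1.22 and 14.6 CPM in KPY-Ctrl tumors and 0.845, 2.19 and 5.39 CPM in KPY-Setd2KO tumors. KPY-Ctrl 1 and 3, at 0.0955 and 0.301 CPM, lay below all other tumors, the first of them on 4 counts. Its log2 fold change was −0.42 (95% interval −2.19 to 1.34, adjusted p = 0.883 by edgeR), and 1.14 without KPY-Ctrl 2 (adjusted p = 0.487).

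Decorin showed the same tumor at its top. Dcn (ENSMUSG00000019929.16, chr10:97479609-97518143, +) was at 0.430, 2.97 and 17.3 CPM in KPY-Ctrl tumors and at 0.924, 1.46 and 9.34 CPM in KPY-Setd2KO tumors. KPY-Ctrl 2 held the 17.3 CPM and KPY-Setd2KO 7 the 9.34 CPM, while the other 7 KPY-Setd2KO tumors were between 0.924 and 2.43 CPM. The log2 fold change was −0.91 (95% interval −2.47 to 0.64, adjusted p = 0.642 by edgeR). It was 0.11 without KPY-Ctrl 2 (adjusted p = 0.955) and −1.58 without KPY-Setd2KO 7 (adjusted p = 0.336). Lumican was almost undetected. Lum (ENSMUSG00000036446.5, chr10:97565128-97572703, +) had 0 counts in 7 of the 14 tumors and at most 19, in KPY-Setd2KO 2, followed by 10 in KPY-Setd2KO 7 and 7 in KPY-Ctrl 2. A count of 0 allows up to 3 counts, or 0.0628 to 0.115 CPM in those 7 tumors, counting error only. Lum did not pass the filter and has no fold change here.

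The PDGF receptors were near the limit of detection. Pdgfra (ENSMUSG00000029231.15, chr5:75152292-75198215, +), which marks alveolar and adventitial fibroblasts, had 1 to 54 counts, that is 0.0215, 0.328 and 1.64 CPM in KPY-Ctrl tumors and 0.156, 0.454 and 1.00 CPM in KPY-Setd2KO tumors. Its log2 fold change was −0.12 (95% interval −1.74 to 1.495, adjusted p = 0.968 by edgeR). Pdgfrb (ENSMUSG00000024620.11, chr18:61045150-61085061, +), which pericytes also carry, had 3 to 76 counts, at 0.0894, 0.355 and 2.31 CPM in KPY-Ctrl tumors and 0.129, 0.622 and 2.91 CPM in KPY-Setd2KO tumors. Its log2 fold change was 0.43 (95% interval −1.22 to 2.09, adjusted p = 0.871 by edgeR), and −0.17 without KPY-Setd2KO 8, its highest tumor. The receptors did not peak in the same tumors. Pdgfra was at 0.0215 to 0.574 CPM in the 7 tumors with low leukocyte scores and at 0.198 to 1.64 CPM in the other 7, with overlap. It was highest in KPY-Ctrl 2, whereas Pdgfrb was highest in KPY-Setd2KO 8.

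**Figure D3:**
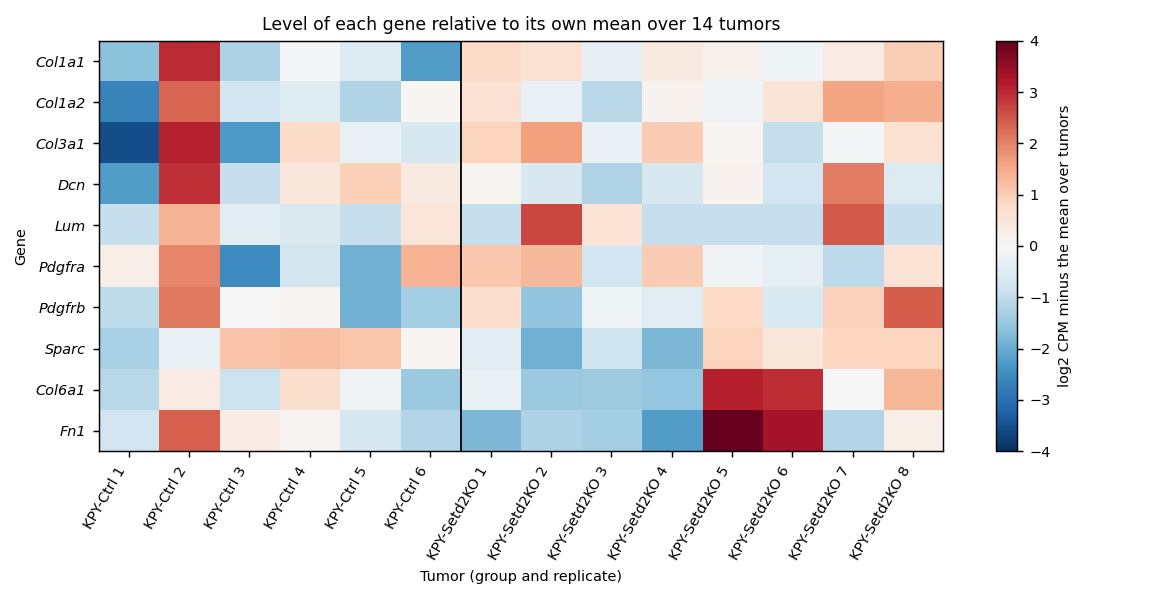
Level of each gene (rows) in each tumor (columns, KPY-Ctrl left and KPY-Setd2KO right of the line), as log2 CPM minus the mean of that gene over 14 tumors, with red above and blue below the mean and colors saturating at 4 in either direction. The upper 7 rows (Col1a1, Col1a2, Col3a1, Dcn, Lum, Pdgfra and Pdgfrb) are red in KPY-Ctrl 2, as is Fn1 in the bottom row, and Col6a1 and Fn1 are red in KPY-Setd2KO 5 and 6.

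Fibronectin had the largest SD of log2 CPM pooled within genotype among the 9 genes tested, although within KPY-Ctrl tumors alone its SD of 1.27 was below that of Col3a1, at 2.32, and of 5 others. Fn1 (ENSMUSG00000026193.15, chr1:71585520-71653200 on the − strand), a glycoprotein that links integrins to collagen, was at 213, 416 and 2491 CPM in KPY-Ctrl tumors and at 103, 208 and 7777 CPM in KPY-Setd2KO tumors. KPY-Setd2KO 5 and 6 reached 7777 and 4834 CPM and KPY-Ctrl 2 reached 2491 CPM, while the other 11 tumors were between 103 and 592 CPM. The highest and the lowest tumor were both KPY-Setd2KO. The log2 fold change was 1.25 (95% interval −1.08 to 3.59, adjusted p = 0.681 by edgeR). Without KPY-Setd2KO 5 and 6 it was −1.65, with an unadjusted p of 0.0238 and an adjusted p of 0.233, and without KPY-Ctrl 2 it was 2.19 (adjusted p = 0.428). Without KPY-Setd2KO 5 alone it was 0.29 (adjusted p = 0.914), without KPY-Setd2KO 6 alone it was 0.84 (adjusted p = 0.786), and DESeq2 gave 0.21 with no p. With the leukocyte score as a covariate it was −0.79 (adjusted p = 0.722). Fn1 made up 92.0% and 90.3% of the summed CPM of the 10 genes in KPY-Setd2KO 5 and 6 and 26.7% to 87.8% in the rest.

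Collagen VI followed the same pair of tumors. Col6a1 (ENSMUSG00000001119.7, chr10:76708792-76726168, −), a chain of the beaded microfibrils next to basement membranes, was at 4.73, 9.57 and 20.6 CPM in KPY-Ctrl tumors and at 4.48, 11.9 and 114 CPM in KPY-Setd2KO tumors. KPY-Setd2KO 5 and 6 were at 114 and 104 CPM, and KPY-Setd2KO 8 was next at 33.5 CPM. KPY-Setd2KO 2 and 4, at 4.65 and 4.48 CPM, lay below every control tumor. KPY-Setd2KO 3, at 4.92 CPM, lay below every control tumor but KPY-Ctrl 6. Its log2 fold change of 1.69 was the largest of the 9, with a 95% interval from −0.065 to 3.45, an unadjusted p of 0.0580 and an adjusted p of 0.388 by edgeR. DESeq2 gave 1.68, with an unadjusted p of 0.0242 and an adjusted p of 0.207. Without KPY-Setd2KO 5 and 6 the edgeR value was 0.08 (adjusted p = 0.953).

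Sparc kept its direction in every alternative fit. Sparc (ENSMUSG00000018593.13, chr11:55394500-55423183, −), a collagen-binding glycoprotein, was at 120, 473 and 678 CPM in KPY-Ctrl tumors and at 78.1, 313 and 546 CPM in KPY-Setd2KO tumors. The log2 fold change was −0.45 (95% interval −1.55 to 0.66, adjusted p = 0.782 by edgeR), and it was below 0 in all 24 alternative fits. Its adjusted p ranged from 0.00920 with limma voom and quality weights to 0.957 over those fits. Its level ran opposite to leukocyte RNA. The 7 tumors with leukocyte scores up to 5.35 had 403 to 678 CPM of Sparc and the 7 with scores from 8.21 had 78.1 to 312 CPM, with no overlap. Within the first 7, KPY-Ctrl tumors had 635 to 678 CPM (n = 3) and KPY-Setd2KO tumors 403 to 546 CPM (n = 4). Within the other 7 the values were 120 to 312 CPM (n = 3) and 78.1 to 223 CPM (n = 4). These sets of tumors were defined from the data, so no test was run on them. Mean log2 CPM of the epithelial list also divided them without overlap, at 10.12 to 10.80 in the first set and 7.88 to 9.26 in the other. So did that of the basement membrane list, at 4.22 to 5.70 and 2.59 to 4.19. Whether epithelial RNA had a part in the level of Sparc was not tested. In the fit with the leukocyte score as a covariate, Sparc had a log2 fold change of −0.38 and an adjusted p of 0.425.

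**Figure D4:**
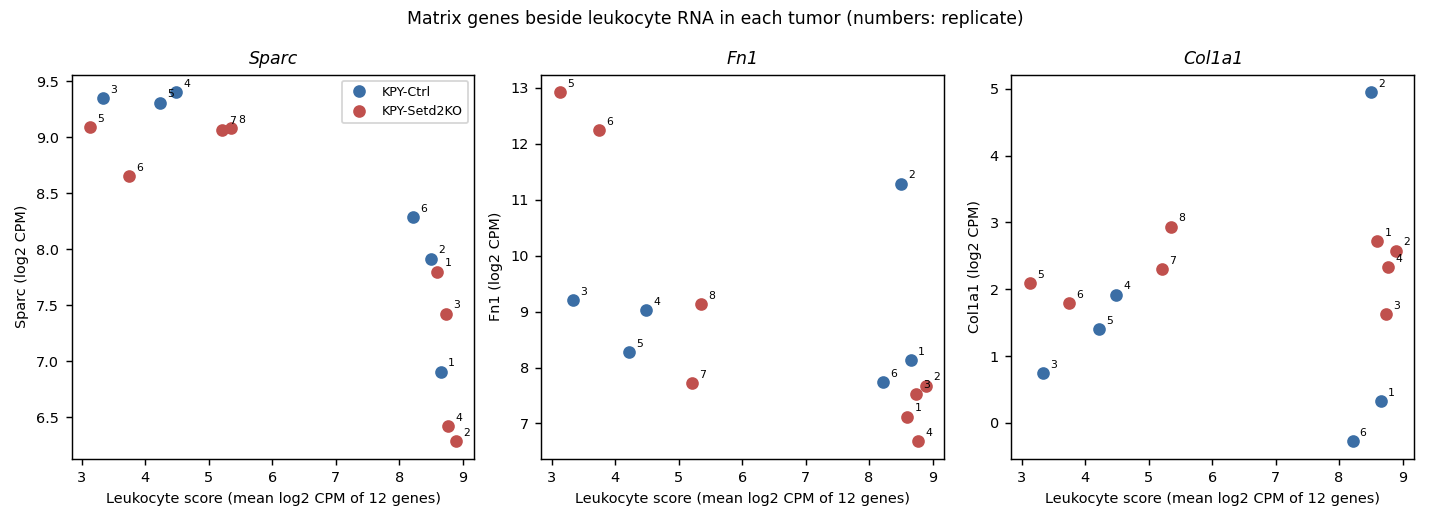
Sparc, Fn1 and Col1a1 (log2 CPM, vertical axes) against the leukocyte score of each tumor (mean log2 CPM of 12 genes, horizontal axes), with KPY-Ctrl in blue, KPY-Setd2KO in red and replicate numbers beside the points. Tumors lie at scores of 3.13 to 5.35 or of 8.21 to 8.90, with Sparc higher in the first set, Fn1 highest in KPY-Setd2KO 5 and 6 of that set, and Col1a1 at 0.773 to 30.9 CPM within the second set.

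The genes did not vary as 1 group, although r was positive for every pair among Col1a1, Col1a2, Col3a1 and Dcn. Over the 36 pairs of the 9 genes tested, deviations of log2 CPM from the genotype mean were compared by Pearson and Spearman correlation, with 100000 permutations of tumors within genotype and Benjamini-Hochberg adjustment over the pairs. Both adjusted p-values were under 0.05 for 1 pair. Col6a1 and Fn1 had r = 0.89 (permutation p = 0.0004, adjusted p = 0.0144) and rho = 0.87 (permutation p = 0.00045, adjusted p = 0.0162) over 14 tumors. With KPY-Setd2KO 5 and 6, which lay farthest from the median, set aside, r was 0.66 (permutation p = 0.0154). The permutations treat tumors as independent, although some came from the same mouse, so the p-values of all these pairs can be too small. No label tells which tumors share a mouse. Col1a1 and Col3a1 had r = 0.82 (permutation p = 0.00791, adjusted p = 0.0949) and rho = 0.81 (permutation p = 0.00130, adjusted p = 0.0234), and r was 0.88 without KPY-Ctrl 2 and 6 (permutation p = 0.00165). Col1a1 and Col1a2, the chains of 1 collagen, had r = 0.70 (permutation p = 0.0477, adjusted p = 0.164) and rho = 0.50 (permutation p = 0.0862, adjusted p = 0.222), with r = 0.64 without KPY-Ctrl 2 and 6. Col1a2 with Col3a1, and Dcn with each of the 3 chains, had r of 0.67 to 0.81 (permutation, adjusted p of 0.0772 to 0.164). With the 2 farthest tumors set aside, r for these pairs was −0.005 to 0.55. Fn1 and Col1a1 had r = 0.28 (permutation p = 0.169, adjusted p = 0.381) and rho = −0.002 (permutation p = 1, adjusted p = 1). Their CPM ratio was 1847 and 1419 in KPY-Setd2KO 5 and 6 and 20.7 to 366 in the other 12 tumors.

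**Figure D5:**
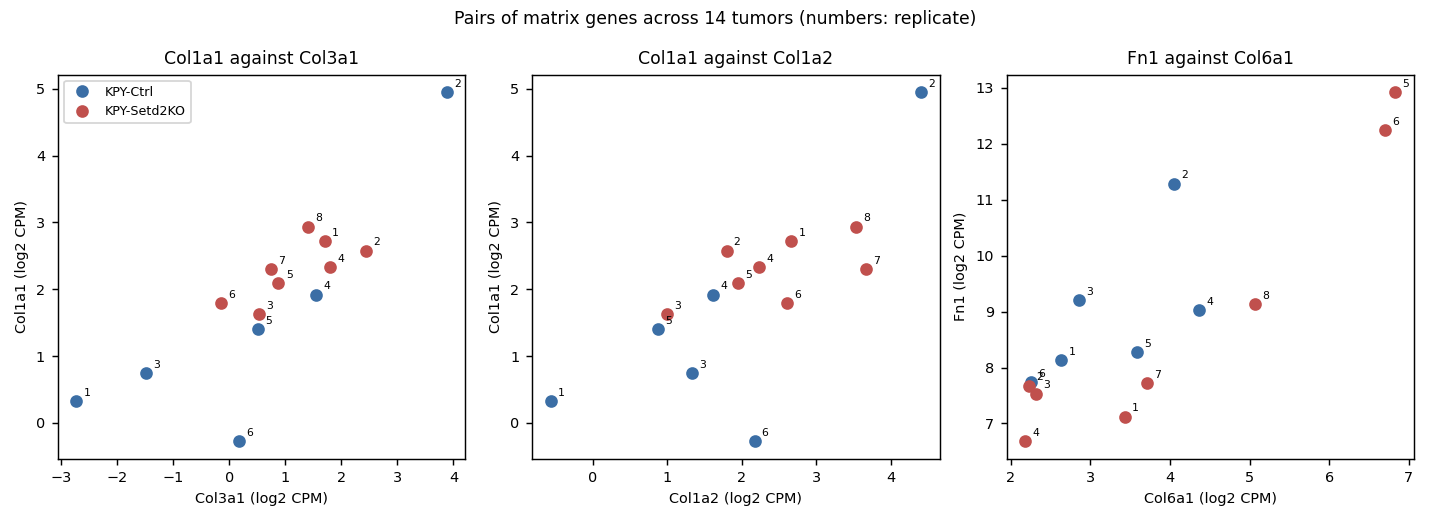
Col1a1 against Col3a1, Col1a1 against Col1a2, and Fn1 against Col6a1, all in log2 CPM, in 6 KPY-Ctrl (blue) and 8 KPY-Setd2KO (red) tumors with replicate numbers. KPY-Ctrl 2 lies at the top right of the collagen panels, and KPY-Setd2KO 5 and 6 at the top right of the Fn1 panel.

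Genes with the pattern most like each were listed by Pearson r of log2 CPM over the 14 tumors, as a description without a test. For Col1a1 they were Cmklr1 (r = 0.85), Col3a1 (0.84), C1qa (0.83), Setd3, Fcrls, C1qb, Mgl2, C1qc, Fbn1 and Gm5537 (0.76). C1qa, C1qb and C1qc, which encode complement chains made by macrophages, were also highest in KPY-Ctrl 2, at 114, 93.7 and 42.6 CPM, against medians of 2.71, 2.54 and 1.36 CPM in KPY-Ctrl and of 18.8, 9.44 and 7.63 CPM in KPY-Setd2KO tumors, whose highest values were 62.3, 28.4 and 34.0 CPM. Col1a2 ranked 14 and Dcn 94 in likeness to Col1a1 among the genes tested. For Fn1 they were Ackr3 (0.93), Adgre5, Rgs3, Kremen1, Ank, Srgap3, Lgr6, Pkp1, Ltbp1 and Mex3b (0.90). Ltbp1, which tethers latent TGF-beta to the matrix, was at 306 and 196 CPM in KPY-Setd2KO 5 and 6 and at most 15.1 CPM elsewhere. For Sparc, a list added after its values had been seen was led by Foxa2 (0.99), a transcription factor of lung epithelium, which ranged from 6.10 to 94.9 CPM.

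Other matrix genes were followed through lists of the same system. edgeR called 0 of the 198 further genes tested in these lists and in the cell type lists, beside 0% of all genes, and the smallest adjusted p among them was 0.116. Counts at an unadjusted p under 0.05 are given with 13.7% of all genes as their background. Among other interstitial collagens 11 of 14 were tested, with 2 higher and 2 lower at that p and a median log2 fold change of −0.19. Col6a6 had the smallest p (log2 fold change −2.56, adjusted p = 0.214). Col5a3 had the largest change, 3.23 (adjusted p = 0.332), with 21.7 and 10.1 CPM in KPY-Setd2KO 5 and 6 and at most 3.90 CPM elsewhere. Col6a2, the partner chain of Col6a1, had 44.2 and 45.3 CPM in that pair and at most 22.8 CPM in the rest.

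Basement membrane genes were more abundant. Of 21 listed, 20 were tested, with 2 higher and 3 lower at the unadjusted threshold and a median of −0.27. Col4a3 had the smallest p, with a log2 fold change of −1.41 (adjusted p = 0.188), and Lama3, a laminin chain of epithelial basement membranes, the largest change, 1.82 (adjusted p = 0.338), at 428 and 384 CPM in KPY-Setd2KO 5 and 6 against at most 74.5 CPM elsewhere. Col4a1, the most abundant collagen IV chain, was at 137 to 668 CPM in KPY-Ctrl and 76.7 to 495 CPM in KPY-Setd2KO tumors. Proteoglycans and matricellular proteins had 11 of 13 tested, 1 higher and 3 lower, with a median of 0.32. There Smoc2, a relative of Sparc, had both the smallest p and the largest change (5.68, adjusted p = 0.231), from 72.9 and 79.6 CPM in KPY-Setd2KO 5 and 6 and at most 1.504 CPM elsewhere. Tenascin C (Tnc) reached 897 and 337 CPM in the pair and at most 127 CPM in other tumors.

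Elastic fibre genes had 8 of 12 tested, 1 higher and 1 lower at the unadjusted threshold, and a median of 0.30. Fbln5, needed for elastic fibre assembly, had the smallest p (−1.51, adjusted p = 0.226) and Fbln2 the largest change (4.04, adjusted p = 0.284). Collagen processing enzymes, which hydroxylate, fold, trim and crosslink the chains, had 21 of 26 tested, 1 higher and 1 lower, with a median of 0.11. Their summed level, set mainly by the most abundant genes, was 2464 to 2810 CPM in KPY-Ctrl and 2487 to 2870 CPM in KPY-Setd2KO tumors. P4hb alone, a subunit of prolyl hydroxylase, had medians of 1324 and 1288 CPM. Mean log2 CPM over the list, to which every gene contributes alike, varied more. It was 4.19 and 4.00 in KPY-Setd2KO 5 and 6 and 2.05 to 3.02 elsewhere. The crosslinking enzyme Lox had the smallest p and the largest change (2.91, adjusted p = 0.237), at 15.0 and 13.6 CPM in KPY-Setd2KO 5 and 6 and at most 2.85 CPM elsewhere. Among genes of matrix degradation 14 of 16 were tested, with 5 higher and 0 lower and a median of 0.71. Mmp3 led by both measures (4.48, adjusted p = 0.137), at 121 and 145 CPM in the pair and at most 32.3 CPM elsewhere.

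Among receptors and signals, Itgb3, Pdgfa and Ltbp1 were also highest in KPY-Setd2KO 5 or 6. Matrix receptors had 18 of 20 tested, 1 higher and 2 lower, with a median of 0.06. Itga1, a collagen-binding integrin chain, had the smallest p (−0.71, adjusted p = 0.122), at 20.3 to 45.0 CPM in KPY-Ctrl and 16.6 to 22.3 CPM in KPY-Setd2KO tumors. Itgb3 had the largest change (3.80, adjusted p = 0.235), at 115 and 88.7 CPM in KPY-Setd2KO 5 and 6 and at most 7.38 CPM in other tumors. The 4 PDGF ligands were all tested, with 2 higher, 1 lower and a median of 1.45. Pdgfd had the smallest p (−1.96, adjusted p = 0.190) and Pdgfa the largest change (2.34, adjusted p = 0.260), at 150 and 174 CPM in the pair and at most 37.8 CPM elsewhere. Their receptor Pdgfra was at 0.335 and 0.282 CPM in that pair, and Pdgfrb at 0.901 and 0.307 CPM. Of the TGF-beta pathway 19 were tested, with 4 higher, 0 lower and a median of 0.28, led by Tgfb3 for p (2.98, adjusted p = 0.175) and Ltbp1 for size (3.92, adjusted p = 0.231). KPY-Setd2KO 5 or 6 was the highest tumor for 12.7% of all genes tested. This held for 13 of the 18 matrix receptors, 12 of the 21 processing enzymes, 10 of the 20 basement membrane genes, 8 of the 19 TGF-beta genes and 7 of the 14 degradation genes tested. It also held for 6 of the 11 proteoglycans and matricellular proteins, 5 of the 11 other interstitial collagens, 3 of the 4 PDGF ligands, 2 of the 8 elastic fibre genes and 2 of the 9 genes followed here.

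Other genes that mark fibroblasts were mixed in level. Of 16 such markers, 8 were under 1 CPM in every tumor, among them Tcf21, Fap, Itga8, Clec3b and Meox2, and 0 were at 0 in every tumor. Their summed level was 44.1 to 121 CPM in KPY-Ctrl and 39.6 to 85.7 CPM in KPY-Setd2KO tumors, most of it from Pdpn, which alveolar epithelium also makes and which was at 33.1 to 109 CPM. Of the 8 tested, 0 were higher and 2 lower at an unadjusted p under 0.05, with a median of −0.66. Scara5 had the smallest p and the largest change (−1.88, adjusted p = 0.284), at 1.05 to 16.7 CPM in KPY-Ctrl and 0.161 to 5.47 CPM in KPY-Setd2KO tumors. The highest values of Cygb, Inmt, Thy1 and Dpt in any tumor were 7.85, 6.43, 3.61 and 2.25 CPM. In KPY-Ctrl 2, the tumor with the most Col1a1, Pdpn was at 93.3 CPM, Cygb at 3.58, Scara5 at 2.95, Thy1 at 1.52 and Inmt at 0.547 CPM, and the other 11 markers were between 0 and 0.364 CPM. KPY-Ctrl 2 was the highest of 14 tumors for 0 of the 8 markers tested, beside 5 of the 9 genes followed here. The share over all genes tested was 4.04%, so 0 of 8 lies close to it. In mean log2 CPM over the 16 markers KPY-Ctrl 2 stood at −1.09, below only KPY-Ctrl 6 at −0.65, with KPY-Setd2KO 8 next at −1.11. It was highest for 2 of the 11 other interstitial collagens tested, Col5a2 and Col6a3. The same held for 1 of 20 basement membrane genes, 1 of 11 proteoglycans and matricellular proteins and 1 of 8 elastic fibre genes. Among processing enzymes it held for 2 of 21, among degradation genes for 1 of 14 and among TGF-beta genes for 1 of 19. Macrophage genes had 4 of 12 and leukocyte genes 1 of 12, and the remaining lists had 0. Mural and smooth muscle genes had 5 of 12 under 1 CPM in every tumor and 8 tested, with a median of −0.02. Their mean log2 CPM was highest in KPY-Ctrl 2, at −0.305, followed by KPY-Setd2KO 4 at −0.347. Acta2, smooth muscle actin, led by both measures (−2.002, adjusted p = 0.116), at 8.57 to 36.9 CPM in KPY-Ctrl and 2.05 to 9.75 CPM in KPY-Setd2KO tumors, whereas Myh11 and Cnn1 were at most 4.44 and 0.286 CPM.

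Markers of other cell types were measured beside these values, and their part in the results was not tested. The mesothelial list had 1 of 5 genes tested, Msln (1.30, adjusted p = 0.607), and Upk3b, Lrrn4 and Bnc1 were under 0.1 CPM in every tumor. Endothelial markers had 10 of 10 tested, 1 higher and 0 lower, a median of 1.04 and a summed level of 22.1 to 148 CPM in KPY-Ctrl and 27.4 to 131 CPM in KPY-Setd2KO tumors. Pecam1 had the smallest p (0.93, adjusted p = 0.237) and Cldn5 the largest change (1.48, adjusted p = 0.551). Platelet genes had 4 of 8 tested, with Pf4 leading for p (−1.64, adjusted p = 0.129) and Ppbp for size (1.93, adjusted p = 0.403), and Gp9 and Tubb1 were under 0.3 CPM in every tumor. Erythroid genes had 5 of 7 tested, and Hbb-bt led by both measures (1.74, adjusted p = 0.240). Epithelial, leukocyte and macrophage lists had all 12 of their genes tested, with medians of −0.20, 0.31 and 0.45 and 0 genes at an unadjusted p under 0.05. Their leading genes were Sftpb (−0.90, adjusted p = 0.534), Ptprc (0.68, adjusted p = 0.873), and, for macrophages, Msr1 for p (1.08, adjusted p = 0.747) and Marco for size (1.10, adjusted p = 0.785). The summed macrophage level was 339 to 34010 CPM in KPY-Ctrl and 224 to 59017 CPM in KPY-Setd2KO tumors. It was 28931 CPM in KPY-Ctrl 2 and 224 and 449 CPM in KPY-Setd2KO 5 and 6, the tumors that stood apart for collagen I and for fibronectin. Other tumors had similar summed levels: 34010 CPM in KPY-Ctrl 1 and 26990 to 59017 CPM in KPY-Setd2KO 1 to 4. KPY-Ctrl 3, 4 and 5 were low, at 339, 706 and 483 CPM. Chil3 alone was at 25346.5 CPM in KPY-Ctrl 2. In mean log2 CPM over the 12 macrophage genes, to which every gene contributes alike, KPY-Ctrl 2 was the highest tumor, at 8.25. KPY-Setd2KO 1 to 4 were at 7.58 to 8.23, and KPY-Ctrl 1 and 6 at 7.00 and 6.14.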

How the data were processed

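RNA-seq was analysed in 6 KPY-Ctrl and 8 KPY-Setd2KO tumors, grouped by the genotype in their labels. Per the study's methods, RNA of live YFP+ cells was sequenced as single-end reads and quantified by the authors with Salmon (0.8.2) against GRCm38.p5. The labels name cell lines and another extraction and library kit, a conflict left unresolved. The deposited values are estimated counts per gene, given as whole numbers, of which the 8 largest keep 3 digits. Symbols and positions came from GENCODE M21 (52403 of 52550 rows matched). Counts were fitted with edgeR 4.0.16 (R 4.3.3) by TMM, filterByExpr and the robust quasi-likelihood test on genotype, with Benjamini-Hochberg adjustment over 16836 genes. Log2 CPM used a prior count of 2. On simulated counts for this comparison (16836 genes, 200 changed by a log2 fold change of 1.5), 32% of the altered genes were called, along with 1 unaltered gene. Alternatives used DESeq2 1.42.0, limma 3.58.1, other scalings and filters, covariates, and fits without single tumors. No pair of tumors within a group agreed within sampling noise (chi-square per degree of freedom at least 21.0). Named genes were the 10 genes, Setd2, each list's genes of smallest p and largest change, abundant or defining markers, and the 10 most like Col1a1 and Fn1. Others were named after their values were seen. The genes and lists were chosen with earlier results of these data known. One allele that all the mice share is not reported here.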

Additional observations from a re-analysis of the deposited data

Results flagged for a closer look

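Dcn in KPY-Setd2KO replicate 7 stood apart from the other 7 tumors of its genotype, at a log2 CPM of 3.23 against 1.31 for the next tumor and −0.03 for the lowest. The gap was 0.588 of the range, where 0.526 is the limit for 8 tumors. It was the only tumor set apart among 22 sets of values examined (10 genes and the ratio of Col1a2 to Col1a1, in each genotype), and chance sets apart about 1 in 20. KPY-Ctrl replicate 2 was not set apart by this measure for any of these genes.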

How the results depend on the processing

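Sparc kept its direction in every alternative fit, and Col1a2 in all but 4 fits without 1 tumor. DESeq2 called 468 genes, limma voom with quality weights 4753 and the leukocyte covariate 386, against 0 by edgeR. DESeq2 had 1 of the 10 genes at an unadjusted p under 0.05, limma voom 2, both of which it called, and the fit without KPY-Setd2KO 5 and 6, added after the values had been seen, 1. The fit that left out KPY-Ctrl 2 as well had 2. limma voom reversed Col1a1 (0.68), Col3a1 (0.57), Col6a1 (−0.39), Fn1 (−0.78) and Pdgfra (1.77). The leukocyte covariate reversed Fn1 (−0.79) and Pdgfra (0.31). Without KPY-Setd2KO 5 and 6 Fn1 (−1.65) and Pdgfra (0.082) reversed, and with KPY-Ctrl 2 left out as well, Col1a1 (1.45), Col3a1 (1.34), Dcn (0.24), Fn1 (−0.72) and Pdgfra (0.73) did. The cause of these changes was not tested. Setd2 had a log2 fold change below 0 in every fit. Its adjusted p was 0.00501 by limma voom (−0.75), 0.0260 by edgeR with the leukocyte covariate (−0.83) and 0.0668 by DESeq2 (−0.75). The largest was 0.433, by edgeR with the replicate number as a block.

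Leaving out 1 tumor at a time gave 0 to 1 genes called, 0 to 2 of the 10 at an unadjusted p under 0.05, and a median log2 fold change of −0.33 to 1.34, the highest without KPY-Ctrl 2. Ranges were −0.66 to 1.34 for Col1a1, −0.068 to 1.35 for Col1a2, −0.68 to 1.14 for Col3a1, −1.58 to 0.11 for Dcn, 0.29 to 2.19 for Fn1, −0.37 to 0.54 for Pdgfra and −0.17 to 1.48 for Pdgfrb, each highest without KPY-Ctrl 2. Whether replicate numbers 1 to 6 pair the tumors could not be told. Deviations of same-numbered tumors correlated at 0.52 to 0.66 for numbers 1, 2 and 5, whose tumors had leukocyte scores in the same set. They correlated at −0.66 to −0.36 for numbers 3, 4 and 6, whose tumors fell in opposite sets, so leukocyte RNA and pairing cannot be separated. With the replicate number as a block, 0 genes were called, and Col1a1 (0.79), Col3a1 (0.76), Pdgfra (0.80) and Fn1 (−0.53) reversed. Other scalings and filters changed no direction of these genes, although with unadjusted library sizes the median over all genes went from 0.03 to −0.11. Counts of 1 to 54 limit Pdgfra, 3 to 76 Pdgfrb and 0 to 19 Lum, and the spread between tumors limits the rest.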
